A study of Mus musculus with 20 samples.

Results

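Complex I (NADH:ubiquinone oxidoreductase) is the entry point of the mitochondrial respiratory chain, and most of its nuclear-encoded subunits and several of its assembly factors have gene symbols that begin with Nduf. The members described here are all 43 genes of the count tables with such a symbol, out of 11512 gene symbols over both tables. Of these, 40 were in both tables, and Ndufa11, Ndufaf8 and Ndufs5-ps were in the knockout table alone. By role there were 7 core subunits, 10 accessory subunits of the matrix arm, 18 accessory subunits of the membrane arm and 6 assembly factors. The other members were Ndufa4, now usually counted as a subunit of cytochrome c oxidase (complex IV), and Ndufs5-ps, which is named as a pseudogene.

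Complex I oxidises NADH in its matrix arm, passes the electrons along flavin and iron-sulfur clusters to ubiquinone, and pumps protons across the inner membrane with its membrane arm. Core subunits do the chemistry and the pumping, and those that span the membrane are encoded by mitochondrial DNA. Accessory subunits surround the core and are needed for assembly or stability, and assembly factors help to build the complex and then leave it. Group 2 innate lymphoid cells (ILC2) live in tissues, secrete IL-5 and IL-13 among other cytokines of type 2 immunity, and are activated by IL-25.

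Bulk RNA of ILC2 sorted from the thymi of young mice was sequenced with MARS-seq, in which the 3′ ends of polyadenylated RNA are tagged. In the treatment experiment, wild-type females received both treatments, sublethal irradiation alone (425 rad), recombinant IL-25 alone (rIL-25, 0.3 µg injected into the thymus), or nothing, with 3 libraries per group and collection after 3 days. In the knockout experiment, irradiated Il25 knockout (KO) males were set against irradiated Il25 wild-type (WT) males, with 4 libraries per group, so that all 8 libraries came from mice given 425 rad. No group was injected without rIL-25, so the injection and the cytokine cannot be told apart, and the labels give neither the strain, the sorting gate nor the form of the knockout allele.

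Total counts per library were 495079 to 1460702 in the treatment experiment and 2093288 to 4420831 in the knockout experiment. Il25 had 0 counts in each of the 4 KO libraries, against 3, 7, 17 and 10 counts in the WT libraries of replicates 1 to 4. Of 13 ILC2 markers, 12 were measured, and Rora was not in either table. Their summed level was 3567 to 4402 CPM (TMM-scaled counts relative to library size) after both treatments, 3699.8 to 5047 after irradiation, 2481 to 2848 after rIL-25 and 2195 to 2733 in untreated mice. Areg was at 0 in every irradiated library. Summed markers of T cells and thymocytes (12 of 12 measured) lay between 2857 and 3959 CPM in the treatment experiment, and Dntt and Rag1, defining thymocyte markers, were among those measured. Summed myeloid and dendritic markers (10 of 11 measured) were 404 to 1915 CPM after rIL-25 (median 482) and 318 to 413 CPM in untreated mice (median 364). In the knockout experiment ILC2 markers summed to 2122 to 2451 CPM in KO and 1900.2 to 2402 CPM in WT libraries. Fewer of the other markers were measured there. T-cell markers (10 of 12 measured, without Cd4 and Cd8a) summed to 2589.8 to 3035 CPM in KO and 3159 to 3956 CPM in WT libraries. Myeloid markers (8 of 11 measured, without Csf1r, Itgax and Itgam) summed to 299 to 393 CPM in KO and 220.1 to 280.0 CPM in WT libraries. The part of these cells in the results was not tested.

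All 40 members of the treatment table, and 42 of the 43 of the knockout table, passed the filter on low counts, within 7482 and 8812 genes tested. Ndufa11, a membrane-arm subunit, did not, with 2 to 5 counts per KO library and 2 to 9 per WT library. The treatment table has a gene 1810043H04Rik, an older symbol of Ndufaf8, which the rule leaves out. Neither table has an entry for Ndufs5, Ndufb1, Ndufaf4, Ndufaf5 or any mitochondrially encoded gene, so those genes were not analysed here. Members took 1.05% to 1.23% of all counts after both treatments, 1.24% to 1.38% after irradiation, 1.06% to 1.15% after rIL-25 and 1.05% to 1.08% in untreated mice. CPM are counts of 3′ tags scaled by TMM and not divided by length, so levels are compared between groups and not between genes. In bulk libraries, fewer cells of a type and less RNA per cell cannot be told apart.

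Promoter sequence is shown for the 4 members called in some comparison whose 250 bases before the RefSeq start hold no annotated exon, because later paragraphs refer to their changes. The bases are RefSeq's (build GRCm38.p6), printed 5′ to 3′ on the strand of the gene, and capitals mark the motif AAGGTCA, which estrogen-related receptors bind. Ndufb2 lies at chr6:39592315-39592564 (plus strand), Ndufs8 at chr19:3912775-3913024 (minus strand), Ndufa3 at chr7:3617123-3617372 (plus strand) and Ndufb8 at chr19:44555443-44555692 (minus strand).
Ndufs8: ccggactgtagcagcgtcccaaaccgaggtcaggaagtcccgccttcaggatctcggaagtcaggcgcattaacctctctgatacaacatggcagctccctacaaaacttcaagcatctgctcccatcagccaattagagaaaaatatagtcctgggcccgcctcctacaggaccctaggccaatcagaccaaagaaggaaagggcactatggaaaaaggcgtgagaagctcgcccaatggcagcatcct
Ndufa3: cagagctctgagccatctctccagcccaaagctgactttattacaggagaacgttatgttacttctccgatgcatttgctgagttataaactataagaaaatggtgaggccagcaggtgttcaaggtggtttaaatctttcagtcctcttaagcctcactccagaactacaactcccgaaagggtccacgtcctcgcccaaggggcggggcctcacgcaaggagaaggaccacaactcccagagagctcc
Ndufb2: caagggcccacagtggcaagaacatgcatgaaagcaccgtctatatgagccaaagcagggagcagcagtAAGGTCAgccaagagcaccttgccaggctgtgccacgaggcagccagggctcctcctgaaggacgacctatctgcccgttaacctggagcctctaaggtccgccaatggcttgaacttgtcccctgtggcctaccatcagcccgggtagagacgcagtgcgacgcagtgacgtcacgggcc
Ndufb8: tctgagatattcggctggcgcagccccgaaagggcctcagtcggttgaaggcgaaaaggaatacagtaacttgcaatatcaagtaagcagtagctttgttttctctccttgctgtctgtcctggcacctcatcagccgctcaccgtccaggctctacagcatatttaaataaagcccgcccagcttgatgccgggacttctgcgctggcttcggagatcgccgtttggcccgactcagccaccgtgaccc

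Motifs of 4 factors known to act at genes of the respiratory chain were searched on both strands of RefSeq windows of 250 bases before to 50 bases after each start. Of the 43 members, 37 had such a window, with 39 windows in all. AAGGTCA was in 2 of the 39 member windows (5.13%), those of Ndufb2 and Ndufb4, and in 4.72% of all 32851 windows. AAGATGG, the YY1 motif, was in 8 member windows (20.5%) and in 6.34% of all windows. In each of the 8 it lay 11 to 45 bases after the start, and its letters hold ATG, so that it can coincide with a start codon. CCGGAAG, bound by the ETS factor GABP, was in 6 member windows (15.4%) and in 8.86% of all. GCGCATGCGC, the NRF1 palindrome, was in 1 member window (2.56%), that of Ndufa11, and in 0.971% of all. A match of letters is a description and not a binding site. Of the members with AAGATGG, Ndufa3 and Ndufb8 were called in some comparison. Ndufa9, Ndufaf8, Ndufc1, Ndufs4, Ndufs6 and Ndufs7 hold it too and were called in none. Any part of the motif in the changes was not tested. Short stretches around the motif, again with its letters in capitals, are given for Ndufb4 (chr16:37654405-37654434, minus strand, motif at positions -55 to -49), Ndufa3 (chr7:3617384-3617413, plus strand, motif at positions 23 to 29 after the start) and Ndufb8 (chr19:44555393-44555422, minus strand, motif at positions 39 to 45), each called in a comparison that follows.
Ndufb4: tcctgagcctgAAGGTCAgactcgagaggg
Ndufa3: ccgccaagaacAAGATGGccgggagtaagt
Ndufb8: tgaaccgcggagaaggtgAAGATGGctgcc

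The first comparison asked how irradiation alone moved complex I transcripts. Here 7 accessory-subunit genes rose, and none fell. By edgeR's quasi-likelihood test with Benjamini-Hochberg adjustment (called at an adjusted p under 0.05), 7 of 40 members (17.5%) were higher in irradiated than in untreated mice, where 2.22% of the 7482 genes tested were called higher and 1.80% lower. The log2 change was above 0 for 39 of 40 members, with a median of 0.37 over members and 0.02 over all genes tested. All 3 irradiated libraries lay above all 3 untreated libraries for 22 members (55%), against 11.9% of all genes, and below them for none, against 10.9% of all genes. Members summed to 14088 ± 645 CPM in irradiated mice and 10352 ± 173 CPM in untreated mice (SD, n = 3 each). Markers of other cell types moved between these groups too. Of 9 tested T-cell markers, 4 were called (Cd3d, Cd3e, Cd3g and Dntt, 3 of them higher and 1 lower), and Cd79b, the 1 measured of 4 B-cell markers, was called lower, with 31.3 to 35.7 CPM in irradiated mice and 56.2 to 71.4 CPM in untreated mice. Cpa3, the 1 measured of 3 mast cell and basophil markers, had 29.0 to 63.3 CPM in irradiated mice and 249 to 353 CPM in untreated mice, and Gzma, the 1 measured of 5 NK cell and ILC1 markers, had 827 to 1147 CPM in irradiated mice and 305 to 412 CPM in untreated mice. The part of all these markers in the result was not tested. The member counts describe a list chosen with earlier results known, and no test of the list as a whole was made.

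**Figure D1:**
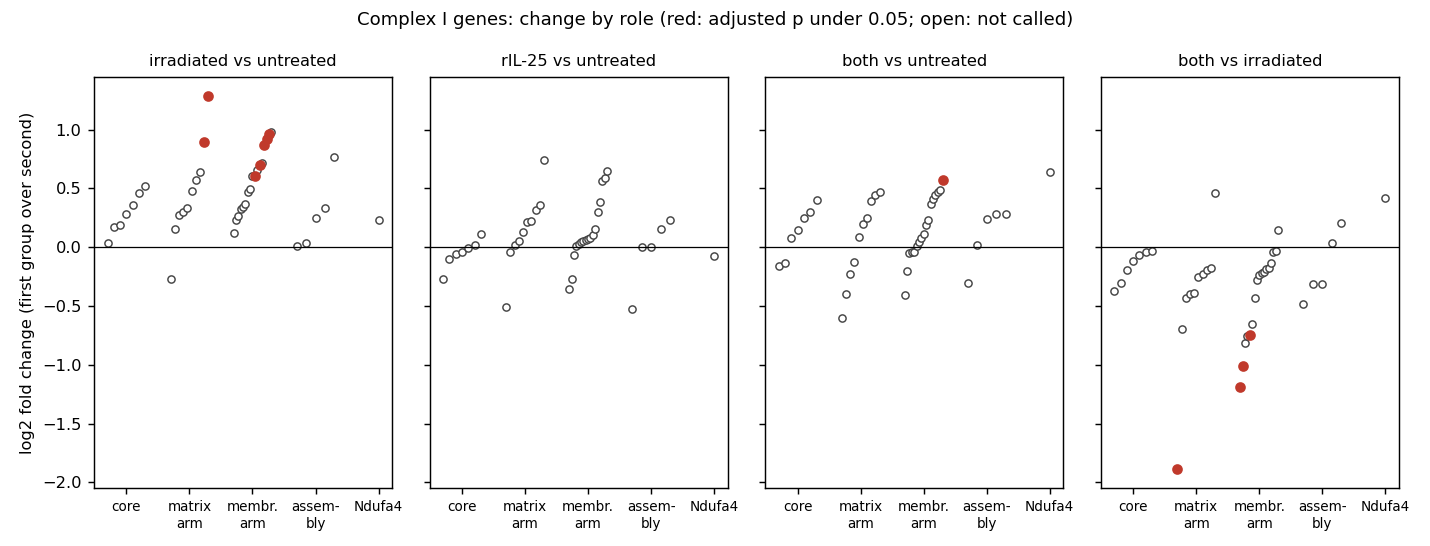
Log2 fold change of each complex I gene (points) in 4 comparisons, grouped by role; red points passed an adjusted p under 0.05 and open points did not. In irradiated against untreated mice 39 of 40 points lie above 0 and the 7 red ones are accessory subunits; in both treatments against irradiation alone the 4 red points lie below 0.

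None of the 7 core subunits was called. Their log2 changes ran from 0.03 for Ndufs7, which hands electrons to ubiquinone, to 0.52 for Ndufs3, with a median of 0.28. The core counts summed to 2001 ± 237 CPM in irradiated mice and 1675 ± 97.8 CPM in untreated mice (SD, n = 3 each), and 1 irradiated library (1729 CPM) lay below the highest untreated library (1738 CPM). Of 5 assembly factors, none was called, with log2 changes of 0.01 to 0.77.

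Of 10 matrix-arm accessory subunits, 2 rose. Ndufa5, an accessory subunit of the matrix arm (chromosome 6, 24518666 to 24528013, GRCm38), had 211, 170.3 and 241 CPM in irradiated mice, against 60.8, 131 and 62.9 CPM in untreated mice. The groups did not overlap, although 1 untreated library stood well above the other two. Its log2 change was 1.29 ± 0.26 (SE), a 2.44-fold rise (adjusted p = 0.00736). Ndufv3, a small subunit beside the NADH-oxidising flavoprotein, had 529, 386 and 573 CPM in irradiated mice, against 283, 236 and 278 CPM in untreated mice. Every irradiated library was above every untreated library, and Ndufv3 rose by 0.90 ± 0.18 on the log2 scale (adjusted p = 0.00736). The only member below 0 was Ndufab1, the mitochondrial acyl carrier protein, at -0.27, with 136, 382 and 156 CPM in irradiated mice and 321, 244 and 247 CPM in untreated mice. Its groups overlapped.

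Of 17 membrane-arm accessory subunits, 5 rose and all 17 had positive log2 changes, from 0.12 to 0.98 with a median of 0.61. Ndufa1, a small X-linked subunit that complex I needs for its assembly, had 276, 366 and 274 CPM in irradiated mice, against 143, 178 and 148 CPM in untreated mice. Even the lowest irradiated library was well above the highest untreated library. Ndufa1 rose 1.95-fold (log2 0.97 ± 0.19, adjusted p = 0.0053).

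Ndufa3, an accessory subunit of the membrane arm, had 537, 448 and 377 CPM in irradiated mice, against 231, 282 and 232 CPM in untreated mice. The groups were apart, and Ndufa3 rose 1.83-fold (adjusted p = 0.0102). Ndufa13, also known as GRIM-19 and needed for assembly, had 908, 1077 and 918 CPM in irradiated mice, against 621, 601 and 569.9 CPM in untreated mice. Here too the groups were apart, with a 1.62-fold rise (adjusted p = 0.0328).

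Ndufb8 had 489.8, 501 and 426 CPM in irradiated mice, against 299, 323 and 306 CPM in untreated mice. Ndufb3 had 219, 299.5 and 196 CPM in irradiated mice, against 118, 143 and 115 CPM in untreated mice. Both are accessory subunits of the membrane arm, and in both all irradiated libraries exceeded all untreated ones. Ndufb8 rose 1.53-fold (adjusted p = 0.041) and Ndufb3 rose 1.9-fold (adjusted p = 0.0431).

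**Figure D2:**
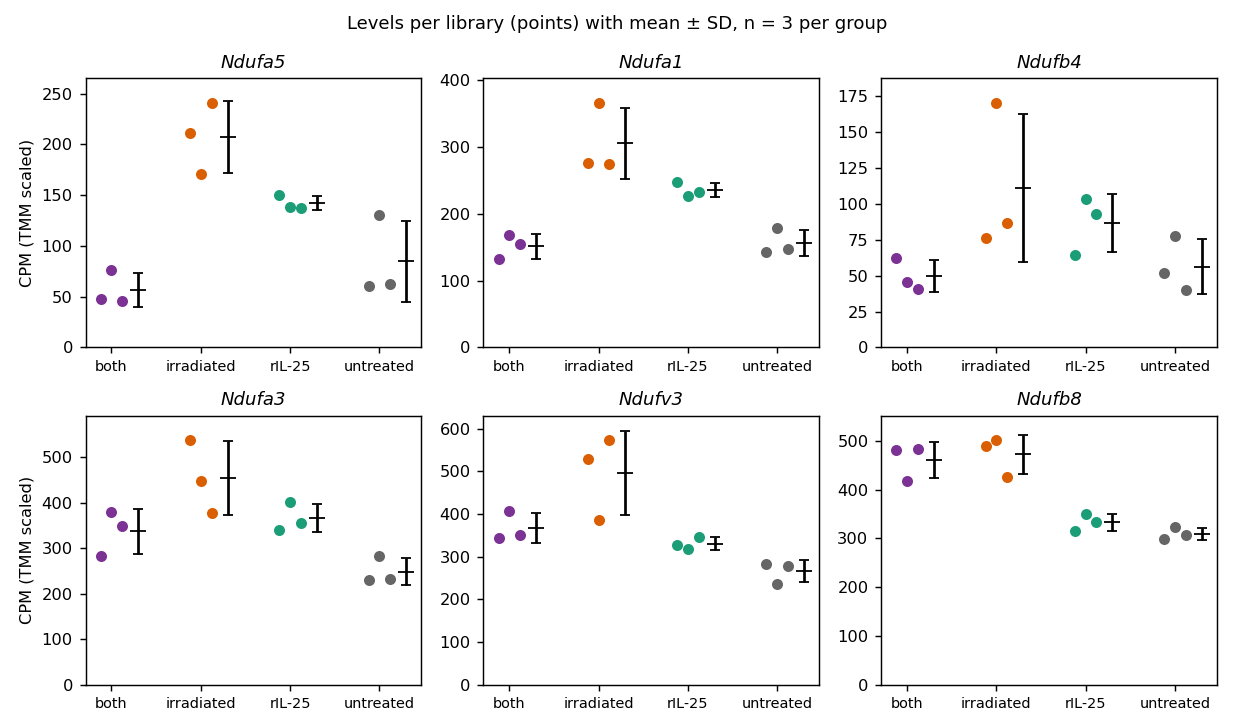
CPM (TMM scaled) of 6 complex I genes in each library of the treatment experiment (points), with the mean and SD beside them (n = 3 per group). The 3 irradiated libraries lie above the 3 untreated libraries in every panel but that of Ndufb4, and the libraries given both treatments lie below the irradiated ones for Ndufa5, Ndufa1 and Ndufb4.

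The count of 7 depended on single libraries: it was 2 without untreated replicate 1 or without untreated replicate 3, 4 without irradiated replicate 1 or 2, and 3 without irradiated replicate 3. Ndufa1 kept its call without each library in turn; Ndufv3 lost it without irradiated replicate 3 (adjusted p = 0.0576), Ndufa5 without untreated replicate 1 (0.0527) or 3 (0.0644), and Ndufa3 without replicate 1 (0.0637) or 3 (0.0655) of the untreated group or replicate 1 of the irradiated group (0.0711). The other 3 lost theirs without any 1 of the 6 libraries compared, at adjusted p of 0.0711 to 0.143 for Ndufa13, 0.0572 to 0.18 for Ndufb3 and 0.0742 to 0.151 for Ndufb8. Ndufb3 also lost it without rIL-25 replicate 1 (0.0545) or both-treatments replicate 2 (0.0501), and Ndufb8 without rIL-25 replicate 1 (0.0586) or 2 (0.0579). Other processing choices also ended calls of these 3 genes. Ndufb8 was called in only 8 of 22 alternatives, left-out libraries included, and lost its call with total counts (0.136), the upper quartile (0.0582), no filter (0.0539), a minimum count of 30 (0.056), a fit of these 2 groups alone (0.0633) and an offset for GC content (0.0666). Ndufb3 was called in 11 of 22 and lost its call with total counts (0.0832), the upper quartile (0.0582) and a minimum count of 30 (0.0661), and Ndufa13 was called in 14 of 22 and lost its call with total counts (0.088) and the GC offset (0.0796). Scaling by total counts without TMM left 4 members called and 34 of 40 log2 changes positive, with a median over all genes of -0.14 and a median over members of 0.21. Under that scaling 103 genes were called higher and 241 lower, where TMM gave 166 higher and 135 lower. Several called genes overlap others in the annotation (Ndufa13 with Yjefn3 and Tssk6, Ndufa3 with Tfpt, Ndufb8 with Gm20538), and the strand setting of the counting is not given in the sources used here.

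The second comparison asked what rIL-25 alone did. No complex I gene was called in either direction. By edgeR's quasi-likelihood test with Benjamini-Hochberg adjustment, 0 of 40 members and 0 of 7482 genes (0%) passed, DESeq2 and limma voom also called 0, and 4 members and 336 genes had an unadjusted p under 0.05. The median log2 change was 0.05 over members and 0.01 over all genes, and 27 of 40 were positive. The member sum was 10827 ± 537 CPM after rIL-25 and 10352 ± 173 CPM in untreated mice (SD, n = 3 each). All 7 tested myeloid markers had a positive log2 change (median 2.16) and an unadjusted p under 0.05 by edgeR's test, and 0 were called. Their part in the result was not tested.

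The 4 members with an unadjusted p under 0.05 were Ndufa5 (log2 0.74), Ndufb4 (0.65), Ndufa1 (0.59) and Ndufa3 (0.56), each with an adjusted p of 0.999. Ndufa5 had 149.9, 139 and 137 CPM after rIL-25, against 60.8, 131 and 62.9 CPM in untreated mice, and Ndufa1 had 248, 227 and 233 CPM after rIL-25, against 143, 178 and 148 CPM in untreated mice. Neither pair of groups overlapped. The rIL-25 libraries lay above the untreated ones for 6 members (15%), against 5.57% of all genes, and below them for 2 (5%), against 4.38%. The most negative member was Ndufaf6, an assembly factor, with 29.98, 31.8 and 34.3 CPM after rIL-25, against 45.6, 53.4 and 39.9 CPM in untreated mice. These groups were apart too, and the log2 change was -0.53 ± 0.30 (adjusted p = 0.999). Leaving out any 1 library left the member count at 0.

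The third comparison set both treatments against no treatment. A single membrane-arm gene, Ndufb8, rose and no member fell. This was 1 of 40 members called higher (2.5%) by edgeR's quasi-likelihood test, where 4.22% of all genes were called higher and 4.70% lower. A count of 1 is not read as a difference from the background. The median log2 change was 0.17 over members and -0.01 over all genes, and the member sum was 11607 ± 1313 CPM after both treatments and 10352 ± 173 CPM in untreated mice (SD, n = 3 each). Ndufb8 had 482, 418 and 483 CPM after both treatments, against 299, 323 and 306 CPM in untreated mice. The groups were far apart, and the rise was 1.49-fold (log2 0.58 ± 0.17, adjusted p = 0.0321). Other lineages' markers were called here too: Cpa3 was called lower, with 2.15 to 61.0 CPM after both treatments and 249 to 353 CPM in untreated mice, and Gzma was called higher, with 510.2 to 918 CPM after both treatments and 305 to 412 CPM in untreated mice. Of 9 tested T-cell markers 4 were called higher and 1 lower, and of 7 tested myeloid markers Tyrobp and Cd74 were called, 1 in each direction. Their part in the result was not tested.

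At the extremes of this comparison neither member was called. Ndufa4 had 150.4, 159 and 74.6 CPM after both treatments, against 89.6, 42.1 and 108 CPM in untreated mice, overlapping groups with a log2 change of 0.64 ± 0.32 (adjusted p = 0.224). Ndufa5 had 47.3, 76.2 and 45.9 CPM after both treatments, against 60.8, 131 and 62.9 CPM in untreated mice. These groups overlapped as well, and the log2 change was -0.60 ± 0.28 (adjusted p = 0.192). All 3 libraries given both treatments lay above the untreated ones for 5 members (12.5%), against 13.5% of all genes, and below them for 1 member (2.5%), against 13.5% of all genes. The call of Ndufb8 was lost without any 1 of the untreated libraries (adjusted p = 0.0707 to 0.0927), without both-treatments replicate 1 (0.077) or 3 (0.125), and the count was 2 without both-treatments replicate 2. It was also lost under scaling by total counts (0.054) or the upper quartile (0.0533), in a fit of these 2 groups alone (0.06), and with an offset for GC content (0.0699).

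**Figure D3:**
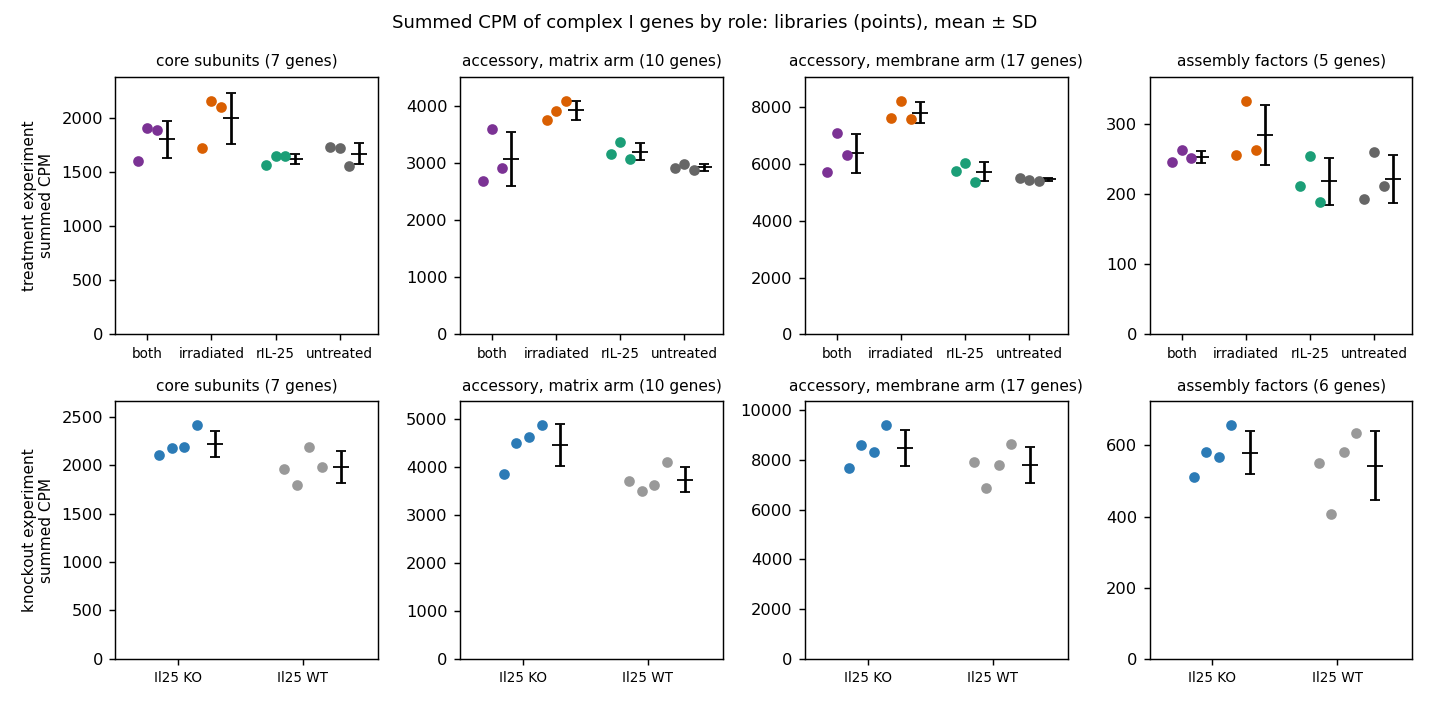
Summed CPM of the tested members by role in each library (points), with mean and SD; the upper row is the treatment experiment (n = 3 per group) and the lower row the knockout experiment (n = 4 per group). For both kinds of accessory subunit every irradiated library lies above every untreated library, and the core subunits of these groups overlap.

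The fourth comparison asked whether rIL-25 changed complex I transcripts in mice that were also irradiated. Here 4 accessory-subunit genes fell and none rose. By edgeR's quasi-likelihood test with Benjamini-Hochberg adjustment, 4 of 40 members (10%) were lower after both treatments than after irradiation alone, where 1.87% of all genes were called lower and 0.642% higher. Log2 changes were positive for 5 of 40 members, with a median of -0.23 over members and 0.00 over all genes. All 3 libraries given both treatments lay below the irradiated libraries for 10 members (25%), against 10.3% of all genes, and above them for none, against 9.18% of all genes. The member sum was 11607 ± 1313 CPM after both treatments and 14088 ± 645 CPM after irradiation (SD, n = 3 each).

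In the matrix arm, Ndufa5 had 47.3, 76.2 and 45.9 CPM after both treatments, against 211, 170.3 and 241 CPM after irradiation. Every library given both treatments was far below every irradiated one. Ndufa5 fell by 1.89 on the log2 scale (SE 0.27, a ratio of 0.27, adjusted p = 0.00151). No other matrix-arm member was called; Ndufa6, which binds the acyl carrier protein, had a log2 change of -0.70 (adjusted p = 0.0756) with groups apart.

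In the membrane arm, Ndufa1 had 132, 168 and 154 CPM after both treatments, against 276, 366 and 274 CPM after irradiation. The groups were apart, and Ndufa1 fell to a ratio of 0.497 (log2 -1.01 ± 0.19, adjusted p = 0.00495). Ndufb2, whose upstream bases are printed above, had 253, 256 and 225 CPM after both treatments, against 453, 425 and 352 CPM after irradiation. Its libraries given both treatments were close to each other and all lower, at a ratio of 0.595 (log2 -0.75 ± 0.17, adjusted p = 0.0192).

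Ndufb4 had 62.5, 45.7 and 40.9 CPM after both treatments, against 76.2, 170.3 and 86.9 CPM after irradiation. The groups did not overlap, but 1 irradiated library was about as far above the others as they were above 0. Ndufb4 fell to a ratio of 0.439 (log2 -1.19 ± 0.31, adjusted p = 0.0453). Ndufb2 and Ndufb4 are both accessory subunits of the membrane arm and are the members whose promoter windows held AAGGTCA. The motif was in 5.13% of member windows and 4.72% of all windows, and the windows of Ndufa5 and Ndufa1, also called lower here, did not hold it. Any part of the motif in these changes was not tested.

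Ndufa5 and Ndufa1 kept these calls without each library in turn. Ndufb2 lost its call without irradiated replicate 1 (adjusted p = 0.108) or both-treatments replicate 3 (0.144), and Ndufb4 without untreated replicate 1 (0.0649), irradiated replicate 2 (0.208) or 3 (0.0671), or both-treatments replicate 2 (0.0802) or 3 (0.223). Ndufb4 was called in only 12 of 22 alternatives and also lost its call with RLE factors (0.05004), total counts (0.0654), a minimum count of 30 (0.0534), limma voom (0.0624) and a fit of these 2 groups alone (0.0687), and Ndufb2 lost its call in that last fit (0.0597). Under scaling by total counts 88 genes were called higher and 114 lower, where TMM gave 48 higher and 140 lower. The count of called members was 2 without both-treatments replicate 3 and 2 in a fit of these 2 groups alone. Ndufb2 overlaps Gm42420, Gm16272 and Braf in the annotation, and the reference also names Ndufb4b and Ndufb4c, copies with which Ndufb4 may share tags, so both values are uncertain in that respect.

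The next comparison set both treatments against rIL-25 alone. Here 3 accessory genes fell and 1 core gene rose. By edgeR's quasi-likelihood test, 3 of 40 members (7.5%) were lower and 1 (2.5%) higher, where 8.75% of all genes were called lower and 6.51% higher. Counts this small are not read as a difference from the background. Libraries given both treatments lay wholly above the rIL-25 libraries for 8 members (20%), against 15.9% of all genes, and wholly below them for 5 (12.5%), against 17.4%. Ndufs8, a core subunit that carries iron-sulfur clusters and has its upstream bases printed above, had 359.9, 461 and 413 CPM after both treatments, against 283, 306 and 269.5 CPM after rIL-25. The groups were apart, with a 1.44-fold rise (log2 0.52 ± 0.18, adjusted p = 0.0467).

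Ndufa5 had 47.3, 76.2 and 45.9 CPM after both treatments, against 149.9, 139 and 137 CPM after rIL-25, and fell to a ratio of 0.394 (log2 -1.34 ± 0.27, adjusted p = 0.00211). Ndufa1 had 132, 168 and 154 CPM after both treatments, against 248, 227 and 233 CPM after rIL-25, and fell to a ratio of 0.643 (log2 -0.64 ± 0.18, adjusted p = 0.024). Ndufa6 had 438, 586 and 307 CPM after both treatments, against 716, 612 and 702 CPM after rIL-25, and fell to a ratio of 0.653 (log2 -0.61 ± 0.21, adjusted p = 0.0492). None of these pairs of groups overlapped, but for Ndufa6 the gap was narrow. Markers of other cell types moved between these groups as well. Of 7 tested myeloid markers 4 were called lower (Tyrobp, H2-Ab1, Cst3 and Lyz2), and the summed myeloid level was 346 to 402 CPM after both treatments and 404 to 1915 CPM after rIL-25. Cpa3 was called lower, with 2.15 to 61.0 CPM after both treatments and 262 to 404 CPM after rIL-25. Gzma was called higher, with 510.2 to 918 CPM after both treatments and 209 to 361 CPM after rIL-25, and 4 of 9 tested T-cell markers were called higher (Cd3d, Cd3g, Rag1 and Cd3e). Their part in the result was not tested.

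Ndufa5 kept its call without each library in turn. Ndufa1 lost it without rIL-25 replicate 1 (adjusted p = 0.0876) or 2 (0.0527), or both-treatments replicate 1 (0.0831) or 3 (0.0801). Ndufs8 lost it without untreated replicate 3 (0.057), any 1 of the rIL-25 libraries (0.0621 to 0.134), or both-treatments replicate 2 (0.0976) or 3 (0.123). Ndufa6 kept it only without irradiated replicate 2 or both-treatments replicate 2, and without any 1 of the other 10 libraries its adjusted p was 0.0511 to 0.277. Other processing choices ended calls too: Ndufs8, called in 11 of 22 alternatives, lost its call with total counts (0.0552), the upper quartile (0.0801), a minimum count of 30 (0.05995), a fit of these 2 groups alone (0.0558) and the GC offset (0.104). Ndufa6, called in 9 of 22, lost its call with RLE factors (0.0535), no filter (0.0597) and a fit of these 2 groups alone (0.0793). The count of called members was 2 without untreated replicate 3, both-treatments replicate 3, or rIL-25 replicate 2 or 3, and 1 without rIL-25 replicate 1.

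The interaction compared the change with irradiation in mice given rIL-25 with the change with irradiation in mice not given it. It was called negative for 3 of 40 members (7.5%), where 1.71% of all genes were called negative and 0.361% positive, and no member was called positive. The median interaction was -0.28 over members and -0.01 over all genes. Genes of complexes II to V and cytosolic ribosomal protein genes had called negative interactions too, as given below. A negative value means that both treatments together gave a level below the product of the single changes. Ndufa5 had an interaction of -2.63 ± 0.38 on the log2 scale (edgeR's quasi-likelihood test, adjusted p = 0.00137). Its group means were 56.5 ± 17.1 CPM after both treatments, 207 ± 35.4 CPM after irradiation, 142 ± 6.94 CPM after rIL-25 and 84.8 ± 39.7 CPM in untreated mice (SD, n = 3 each).

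Ndufa1 had an interaction of -1.60 ± 0.26 (adjusted p = 0.00249). Its means were 151 ± 18.1 CPM after both treatments, 305 ± 52.6 CPM after irradiation, 236 ± 10.8 CPM after rIL-25 and 156 ± 19.3 CPM in untreated mice. For both genes the mean was above the untreated level after either single treatment and near or below it after both. Ndufb4 had an interaction of -1.83 ± 0.43 (adjusted p = 0.0261), with means of 49.7 ± 11.4 CPM after both treatments, 111 ± 51.5 CPM after irradiation, 86.8 ± 20.4 CPM after rIL-25 and 56.3 ± 19.1 CPM in untreated mice (SD, n = 3 each).

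Ndufb8 averaged 461 ± 36.9 CPM after both treatments and 472 ± 40.6 CPM after irradiation, against 333 ± 17.7 CPM after rIL-25 and 309.5 ± 12.3 CPM in untreated mice. Its interaction was -0.14 ± 0.23 (adjusted p = 0.822). Ndufa5 and Ndufa1 kept the interaction call without each library in turn, and Ndufb4 lost it without untreated replicate 1 (adjusted p = 0.105) or 3 (0.105), irradiated replicate 2 (0.0712), rIL-25 replicate 2 (0.067) or both-treatments replicate 3 (0.0992). The count of called members was then 2 without untreated replicate 1 or 3, rIL-25 replicate 2 or both-treatments replicate 3, and 5 without both-treatments replicate 2. Under scaling by total counts 61 genes had a positive and 117 a negative called interaction, where TMM gave 27 positive and 128 negative. Of 7 tested myeloid markers 0 had a positive interaction (median -3.02). By edgeR's test 6 of them had an unadjusted p under 0.05 and 0 were called. Their part in the result was not tested. The comparisons share their libraries, so these values stand side by side and are not independent of each other.

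The knockout experiment asked whether loss of Il25 changed complex I transcripts in irradiated mice. A single matrix-arm gene, Ndufa2, rose and none fell. By edgeR's quasi-likelihood test with Benjamini-Hochberg adjustment, 1 of 42 members (2.38%) was higher in KO than in WT mice, where 1.57% of the 8812 genes tested were called higher and 0.204% lower, so the share was near the background. The median log2 change was 0.09 over members and 0.00 over all genes, with 31 of 42 positive. Under scaling by total counts 20 of 42 were positive, the member median was -0.01 and the all-gene median -0.11, with 103 genes called higher and 30 lower, where TMM gave 138 higher and 18 lower. The member sum was 15847 ± 1305 CPM in KO mice and 14168 ± 1126 CPM in WT mice (SD, n = 4 each), and the ranges overlapped. Summed T-cell markers were lower in every KO than in every WT library and summed myeloid markers higher, by the ranges given above. Of 9 tested T-cell markers 1 (Dntt) was called lower, and of 7 tested myeloid markers 4 were called higher. The summed ILC2 markers overlapped, but 5 of 12 tested ILC2 markers were called higher (Il13, Icos, Areg, Id2 and Il1rl1) and 0 lower. The part of all these markers in the result was not tested.

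Ndufa2, a matrix-arm subunit with a thioredoxin-like fold, had 528, 497, 636 and 614 CPM in KO mice, against 409, 438, 336 and 375 CPM in WT mice. Every KO library lay above every WT library, and Ndufa2 rose 1.46-fold (log2 0.54 ± 0.13, adjusted p = 0.0356). Its call was lost without KO replicate 3 (adjusted p = 0.146) or 4 (0.109), without WT replicate 1 (0.0885), 3 (0.111) or 4 (0.081), and under scaling by total counts (0.121). The count of called members was 0 in each of these cases and 2 without KO replicate 2. Ndufa2 overlaps Tmco6 on the opposite strand.

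Ndufa9, a matrix-arm subunit near the ubiquinone site, was next in size, with 197, 182, 287 and 281 CPM in KO mice, against 159.9, 178, 179.5 and 144 CPM in WT mice. The groups were apart by a narrow gap, and the log2 change of 0.51 was not called. KO libraries lay above WT libraries for 4 members (9.52%), against 4.21% of all genes, namely Ndufa2, Ndufa9, Ndufb5 and Ndufv2, and below WT libraries for none, against 2.96% of all genes. Ndufaf1, an assembly factor of the membrane arm, had the most negative log2 change, -0.31 ± 0.26 (adjusted p = 0.701). It had 25.3, 16.3, 9.98 and 22.6 CPM in KO mice, against 21.2, 14.3, 28.5 and 30.9 CPM in WT mice, with overlap.

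The 3 genes with a called interaction in the treatment experiment were not called here. Ndufa5 had a mean of 104 ± 12.6 CPM in KO mice and 108 ± 31.9 CPM in WT mice (log2 -0.06 ± 0.19), and Ndufa1 had 301 ± 27.2 CPM in KO mice and 278 ± 43.4 CPM in WT mice (log2 0.11 ± 0.13). Ndufb4 had 111 ± 24.5 CPM in KO mice and 116 ± 56.1 CPM in WT mice (SD, n = 4 each; log2 -0.06 ± 0.27). Ndufs5-ps had 6.27, 9.66, 8.17 and 14.2 CPM in KO mice, against 7.93, 9.21, 10.6 and 17.2 CPM in WT mice, and was not called. The cohorts differ in sex and were counted in separate tables, and no level was compared between them.

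**Figure D4:**
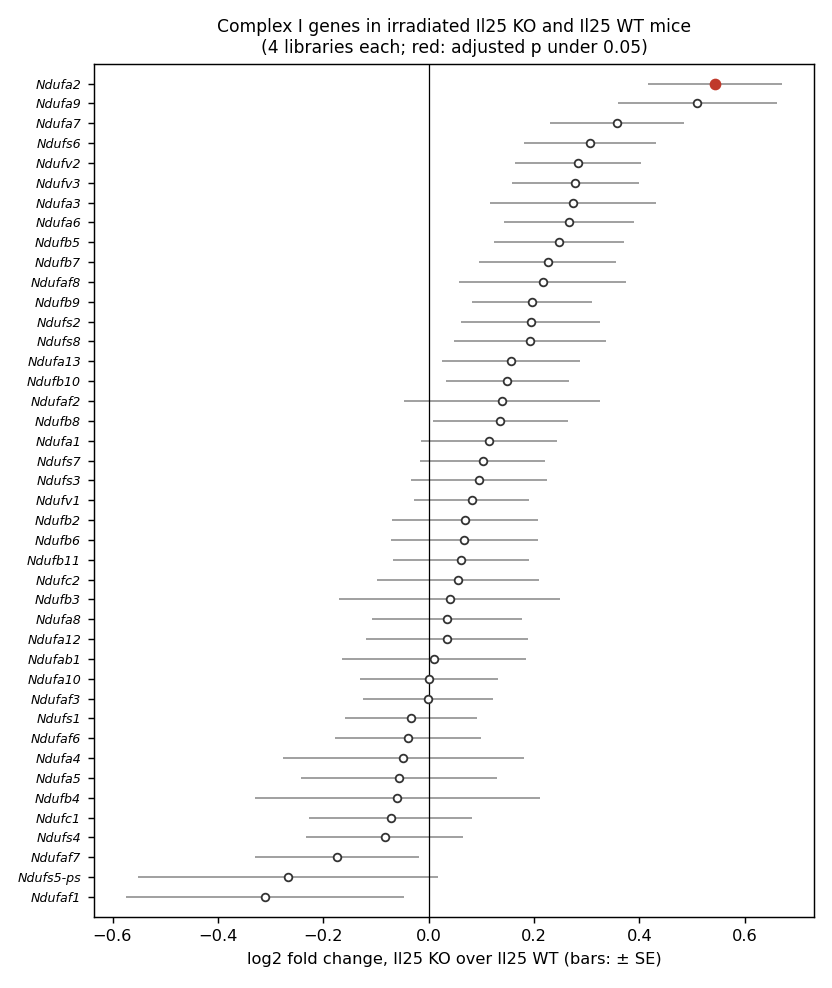
Log2 fold change of the 42 tested complex I genes in irradiated Il25 KO over irradiated Il25 WT mice (points, bars ± SE, 4 libraries each), ordered by size. The red point is Ndufa2, the 1 member with an adjusted p under 0.05, and 31 of 42 points lie above 0.

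Genes of the other respiratory complexes were called as well. Of 40 tested genes of complexes II to V, 9 rose with irradiation and none fell, where 2.22% of all genes were called higher and 1.80% lower, with a median log2 change of 0.52 against 0.02 over all genes. Called examples were Sdhb of complex II and Cox5b of complex IV. After both treatments against irradiation alone, 8 of the 40 fell and none rose, where 1.87% of all genes were called lower and 0.642% higher (median -0.36, against 0.00 over all genes). After both treatments against rIL-25, 3 of the 40 rose and 4 fell, where 6.51% of all genes were called higher and 8.75% lower (median 0.03, against -0.01 over all genes). The interaction was called negative for 7 of the 40 and positive for 0, where 1.71% of all genes were called negative and 0.361% positive. Its median was -0.55, against -0.28 over complex I members and -0.01 over all genes. In KO against WT mice, 0 of 40 were called by edgeR's quasi-likelihood test, where 1.57% of all genes were called higher and 0.204% lower. An unadjusted p under 0.05 was found for 7 of the 40 and for 1035 of all 8812 genes tested there. Ecsit, a complex I assembly factor without an Nduf symbol, was the 1 of 5 tested factors of that kind to rise with irradiation, and of 11 citric acid cycle genes 1 (Cs, citrate synthase) rose, against the same 2.22% of all genes; counts of 1 in lists this short are not read further. None of 10 regulators of mitochondrial biogenesis was called with irradiation (1 at an unadjusted p under 0.05, as were 1415 of all 7482 genes).

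Ribosomal protein genes did not follow one pattern. With irradiation against no treatment, 5 of 77 cytosolic ribosomal protein genes rose and 1 fell (median 0.32), and 3 of 64 mitochondrial ribosomal protein genes rose (median 0.26), where 2.22% of all genes were called higher and 1.80% lower. After both treatments against irradiation, 8 of 77 cytosolic ribosomal protein genes fell (median -0.34) and 4 of 64 mitochondrial ones fell (median -0.05), where 1.87% of all genes were called lower. After both treatments against no treatment, 5 of 77 cytosolic genes fell (median 0.00), and 3 of 64 mitochondrial genes rose and 1 fell (median 0.21), where 4.22% of all genes were called higher and 4.70% lower. After both treatments against rIL-25, 1 of 77 cytosolic genes rose and 13 fell (median -0.14), while 9 of 64 mitochondrial genes rose and 3 fell (median 0.30), where 6.51% of all genes were called higher and 8.75% lower. The interaction was called negative for 9 of 77 cytosolic genes (median -0.47) and 2 of 64 mitochondrial genes (median -0.06), and positive for none. Of all genes, 1.71% were called negative and 0.361% positive there. Summed ILC2 markers were higher in every irradiated library than in every untreated library, by the ranges given above, but single markers went both ways. Of 11 tested ILC2 markers 8 had a positive log2 change, Thy1 and Id2 were called higher, and Kit was called lower. The part of these markers in the changes of complex I genes was not tested.

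**Figure D5:**
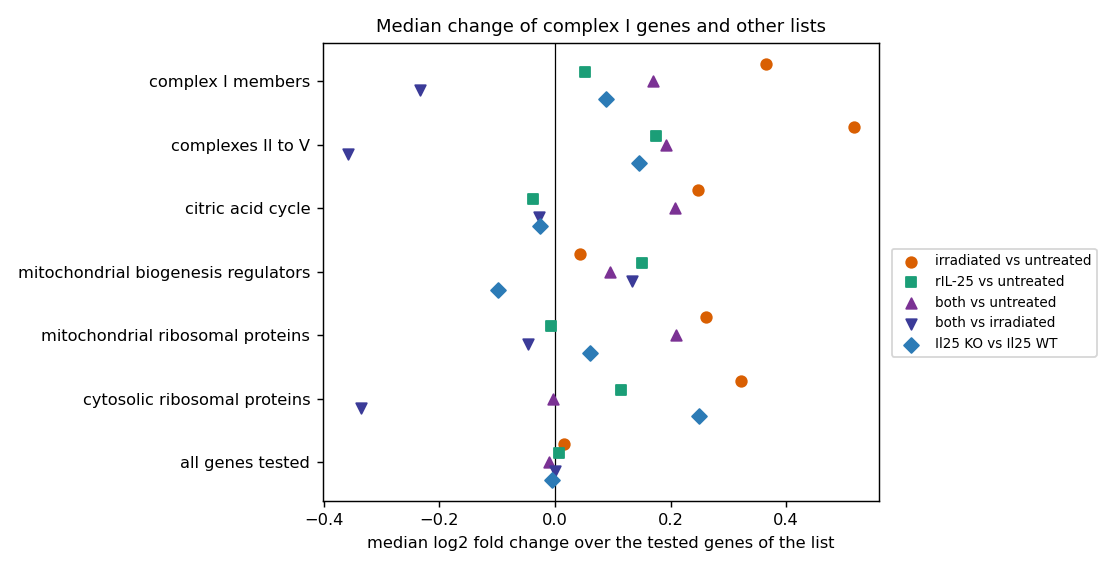
Median log2 fold change of the tested members of each gene list (rows) in 5 comparisons (symbols); the bottom row is the median over all genes tested. Every gene list but the mitochondrial biogenesis regulators has a positive median in irradiated against untreated mice and a negative one in both treatments against irradiation. The negative medians of the citric acid cycle (-0.03) and of mitochondrial ribosomal proteins (-0.05) are small.

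Over all 7 comparisons, 12 of the 42 tested members were called at least once and 30 never were. The share of all genes called at least once was not counted, so these counts have no background beside them. Ndufs8 was the 1 core subunit among the 12, no assembly factor was among them, and the other 11 were accessory subunits of the matrix and membrane arms. In the authors' deposited table, 7 members had an adjusted p under 0.05 for irradiated against untreated mice (Ndufa1, Ndufa13, Ndufa3, Ndufa5, Ndufb3, Ndufb8 and Ndufv3), 0 for rIL-25, 1 for both treatments against untreated (Ndufb8), 4 for both against irradiated (Ndufa1, Ndufa5, Ndufb2 and Ndufb4), 0 for both against rIL-25 and 1 for KO against WT (Ndufa2). Over all genes, the authors called 269 for irradiated against untreated mice, 3 for rIL-25 and 555 for both treatments against untreated. They called 180 for both against irradiated, 51 for both against rIL-25 and 195 for KO against WT. The treatment experiment held 9973 genes and the knockout experiment 10706.

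Among members near the lower limit of detection, Ndufaf1 had 8 to 24 counts per library after both treatments, 9 to 17 after irradiation, 17 to 36 after rIL-25 and 6 to 29 in untreated mice. Differences in Ndufaf1 and in other members with few counts were poorly resolved at this depth, with an SE of 0.45 for the log2 change with irradiation of Ndufaf1. Ndufa13, with the highest mean CPM of the members in both experiments, had an SE of 0.18 in the same comparison.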

How the data were processed

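MARS-seq libraries of sorted thymic ILC2 were analysed from the gene counts that the authors deposited, as raw counts per gene in 1 table per experiment. Per the submitters' processing notes, the tools were STAR 2.5.2b, bcl2fastq, cutadapt, DESeq2 and HTSeq, with mm10 as the build; settings and annotation release are not given in the sources used here. The name of the knockout table refers to molecular identifiers; whether the treatment counts are reads or identifiers is not given. The authors' deposited tables also hold log2 fold changes and adjusted p-values, which were used only for counts of called members and called genes; their signs run opposite to those given here. The labels do not say that replicates came from separate animals, so p-values measure only the spread between these samples.

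edgeR's filterByExpr (minimum count 10) took out genes of low count. Libraries were scaled by TMM and tested with edgeR 4.0.16 (R 4.3.3, quasi-likelihood, Benjamini-Hochberg over all genes tested, called under 0.05). Each experiment had its own fit, of 12 libraries (treatment) or 8 (knockout). The SE is the log2 change over the square root of F. The test was checked on simulated counts. Alternatives were RLE, upper-quartile or no scaling factors, no filter or a minimum count of 30, DESeq2 1.42.0, limma 3.58.1 voom with quality weights, the replicate number as a block, only the groups compared, each library left out in turn and, added after seeing the data, a GC offset (from the final 500 bases of each transcript). No library pair of a group agreed within sampling noise (chi-square per degree of freedom 2.27 to 14.8).

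Positions and overlaps come from GENCODE on GRCm38, promoters from RefSeq. Members and lists were chosen with earlier results of these data known. Members named by rule were those called in any comparison, the extremes of comparisons with fewer than 3 called members, and those of highest and lowest mean CPM. Values per library are printed for called members and extremes in the groups of the comparison concerned, and not in every group. Ndufa13, of highest mean CPM, is printed for irradiated and untreated mice only. Ndufab1 and Ndufa9 were added after their values were seen.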

Additional observations from a re-analysis of the deposited data

Results flagged for a closer look

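The effect of irradiation differed between mice given rIL-25 and mice not given it for 3 complex I genes, by edgeR's test of the interaction. The log2 interaction was -2.63 for Ndufa5, -1.60 for Ndufa1 and -1.83 for Ndufb4. Called negative interactions were not particular to complex I: 7 of 40 genes of complexes II to V and 9 of 77 cytosolic ribosomal protein genes had one. Of all genes, 1.71% did. For Ndufa5 the log2 change with irradiation was -1.34 in mice given rIL-25 and 1.29 in mice not given it. For Ndufa1 these changes were -0.64 and 0.97, and for Ndufb4 they were -0.85 and 0.98, of which the Ndufb4 changes did not pass the threshold on their own. The cause was not tested. In the knockout experiment, Dixon's criterion was applied to KO and WT levels of the members named by rule, of Ndufa9 and of Ndufa11, not all of them printed here. It was also applied to the sums over all tested members and by role. These gave 46 groups of 4 libraries, and in none did a library stand apart at the 95% critical value.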

How the results depend on the processing

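Over 2230 recomputed values of the 106 log2 changes of members named by rule, 2093 kept their side of the threshold, 101 lost it and 36 passed it newly. The sign differed from the value reported in 64 of the 2230, over 22 of the 106 changes, and none of the 64 passed the threshold as reported or in the alternative. Counts of called members moved by over 1.5 times as follows, and the cause was not tested unless given. For irradiated against untreated mice (7 as reported) limma voom gave 12 and total counts without TMM 4, and single libraries left out gave 2 to 7. For both treatments against untreated (1) total counts, the upper quartile, a fit of the groups compared and the GC offset each gave 0, and single libraries left out gave 0 to 2. For both against irradiated (4) the fit of the groups compared, which holds fewer samples, gave 2, and single libraries left out gave 2 to 5. For both against rIL-25 (4) single libraries left out gave 1 to 6. For the interaction (3) DESeq2 gave 5 and limma voom 8, and single libraries left out gave 2 to 5. For KO against WT (1) total counts and the replicate block each gave 0, and single libraries left out gave 0 to 2. For rIL-25 against untreated every alternative gave 0 members. Over all genes, limma voom called 541 genes against 301 in irradiated mice and 417 against 155 for the interaction, and the fit of the groups compared called 125 against 188 for both against irradiated. For both against rIL-25 the authors' deposited table called 51 genes, against 1142 here. Leaving out single libraries gave 86 to 370 genes for irradiated, 271 to 896 for both against untreated, 42 to 358 for both against irradiated, 460 to 1318 for both against rIL-25, 29 to 347 for the interaction, 105 to 174 for KO and 0 to 3 for rIL-25. The replicate block ended the call of Ndufa2 in KO mice (adjusted p = 0.102 by edgeR) and moved no other count of called members past 1.5 times. Deviations of same-numbered libraries from their group means correlated at -0.197 to 0.375. In each pair of groups compared directly at least 1 same-numbered pair was at or under 0.1, so for these comparisons the numbers were not taken to pair the samples. For irradiated with rIL-25, groups not set against each other, all 3 pairs were over 0.1 (0.122, 0.375 and 0.198), and each of the 6 libraries correlated best with its own number, as did all 6 for irradiated with both treatments, a hint from the data and not the design. Total counts shifted the median of all genes by -0.16 in irradiated mice, 0.11 for both against irradiated, 0.14 for the interaction and -0.10 in KO mice. The libraries of the treatment experiment held fewer counts than those of the knockout experiment; what this did to detection was not tested.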
